A study of Mus musculus with 7 samples.

Results

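The enzymes that burn fatty acids in mitochondria, and those that make or break the acyl-CoA esters they burn, were followed in the retinal pigment epithelium (RPE) of aged mice. The 33 genes were taken by name: 5 long-chain acyl-CoA synthetases, 2 carnitine acyltransferases, 9 acyl-CoA dehydrogenases, 8 enzymes of the later steps and of unsaturated chains, 3 electron transfer genes, 4 acyl-CoA thioesterases, and Mlycd and Pdk4. All 33 were among the 52740 genes of the table and all 33 were among the 16990 that passed the filter on low counts. RNA was sequenced from the RPE of 7 mice, 1 library each. The 4 WT libraries (F1, F2 and F3 from females, M1 from a male) came from C57BL6/J mice, and the 3 LC3b-/- libraries (F1 and F3 from females, M from a male) from the strain B6;129P2-Map1Lc3btm1Mrab/J, which lacks Map1lc3b in the whole body. All 7 mice were 24 months old and were kept under cyclic light, and both lines were free of the rd8 mutation. The lines were bought separately, so genotype and strain background cannot be told apart. The same holds for the group numbers in the mouse names, which were never shared by WT and LC3b-/-.

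The RPE engulfs the lipid-rich tips of photoreceptor outer segments every day, and LC3b is attached to the phagosomes that digest them. Fatty acids are activated to acyl-CoA by synthetases, carried into the mitochondrion as carnitine esters, and shortened there by repeated rounds of dehydrogenation, hydration, a second dehydrogenation and thiolysis. The first dehydrogenation passes its electrons through electron transfer flavoprotein to the respiratory chain, and the acetyl-CoA can be turned into ketone bodies. Many of these genes are known targets of the PPAR receptors and of their coactivator Ppargc1a.

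The question addressed was whether loss of LC3b goes with altered transcript levels of these enzymes. Library totals were 24495952 to 35616134 estimated counts, and values are given as CPM, the counts of a gene scaled to a common library size (TMM-scaled CPM). The targeted gene, Map1lc3b, lay between 104 and 130 CPM in WT and between 6.76 and 8.33 CPM in LC3b-/-. Of 12 RPE markers, 11 were lower in LC3b-/-, 8 of them at an unadjusted p under 0.05, and no marker was at 0 in a whole group, although Best1 averaged 1.27 CPM in WT. Their summed level was 32183 to 50830 CPM in WT, against 14187 in LC3b-/- F1, 16977 in F3 and 30256 in M. Markers of ocular surface epithelium ran the other way. They were higher in 8 of 8, with a sum of 6.18 to 2123 CPM in WT and 18481, 4861 and 2306 CPM in LC3b-/- F1, F3 and M. Endothelial markers were higher in 6 of 6, with sums of 170.0 to 546 CPM in WT and 672 to 720 CPM in LC3b-/-. Fibroblast markers were also higher in 6 of 6, with a median log2 fold change of 0.75 and overlapping sums of 328 to 1371 and 836 to 1836 CPM, none at an unadjusted p under 0.05. Photoreceptor markers were lower in 10 of 10, with a median of −1.24 and none at an unadjusted p under 0.05, and varied widely within groups, from 275 to 20994 CPM in WT and from 96.5 to 7208 CPM in LC3b-/-. Mueller glia, macrophage, skeletal muscle and erythrocyte markers had members on both sides. Adipocyte markers stayed below 1 CPM in sum. In bulk RNA, fewer cells of a type and less RNA per cell cannot be told apart.

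Per kilobase of the canonical transcript, the most abundant of the 33 transcripts in WT were Etfb, at 320 ± 51.4 CPM per kb (SD, n = 4), Acsl6 at 194 ± 35.8 and Eci1 at 176 ± 36.4. Acsl6 and Eci1 did not differ beyond their spread. Acaa2 at 89.5 ± 13.8 and Acadvl at 84.1 ± 6.25 CPM per kb came next and were also within their spread of each other. At the low end stood Acsl5 at 4.10 ± 1.02, Acsl4 at 3.57 ± 0.534 and Pdk4 at 1.82 ± 0.322 CPM per kb. Acsl6 stood far above the other 4 synthetases, of which Acsl3 had the highest level at 33.6 ± 3.17 CPM per kb.

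In LC3b-/- RPE most of the oxidation genes lay lower than in WT, while most synthetases lay higher. The fold change was below 0 for 25 of the 33 genes (75.8%), against 48.8% of all genes tested. The median log2 fold change of the 33 was −0.29, against 0.014 for all genes. The edgeR quasi-likelihood test called 1 of the 33 at an adjusted p under 0.05 and at least 1.5-fold, the thioesterase Acot1. It was lower, where 0.112% of all genes were called lower and 0.124% called higher. At an unadjusted p under 0.05, 14 were lower (42.4%, against 10.6% of all genes) and 5 were higher (15.2%, against 13.5%). The WT and LC3b-/- libraries did not overlap for 9 genes that were lower in LC3b-/- (27.3%, against 10.3% of all genes) and for 5 that were higher (15.2%, against 12%). The 9 were Acsl6, Cpt2, Acadvl, Eci1, Etfb, Acot1, Acot2, Acot13 and Mlycd, and the 5 were Acsl1, Acsl3, Acsl4, Acsl5 and Acot9. All 14 of these had an unadjusted p under 0.05, as did Acadl, Acad11, Acads, Hadh and Decr1, which were lower with overlapping groups. With DESeq2, 6 were called lower (18.2%, against 3.64% of all genes), namely Cpt2, Etfb, Acsl6, Acot1, Acot2 and Mlycd. DESeq2 called 2 higher, Acsl5 and Acot9 (6.06%, against 7.1%).

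These counts leaned on single libraries. The number lower at an unadjusted p under 0.05 was 7 without WT M1, 7 without LC3b-/- F1 and 7 without LC3b-/- F3. The number higher was 3 without WT F3. The median log2 fold change was −0.44 without LC3b-/- M. None of the 33 was called once WT F2, F3 or M1 or either LC3b-/- female was left out. Calls over all genes also fell in those fits, to between 11 and 20, against 40 with all libraries. Without WT F1 the count called was 2, Acot1 and Acsl5, where 215 of all genes were called. The LC3b-/- M library was the closest to WT. It lay within the WT range for 18 of the 33 genes, below it for 10 and above it for 5, whereas LC3b-/- F3 lay below the WT range for 24 and LC3b-/- F1 for 18. Among the 25 genes with a fold change below 0, LC3b-/- M had the highest of the 3 LC3b-/- values for 21.

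**Figure D1:**
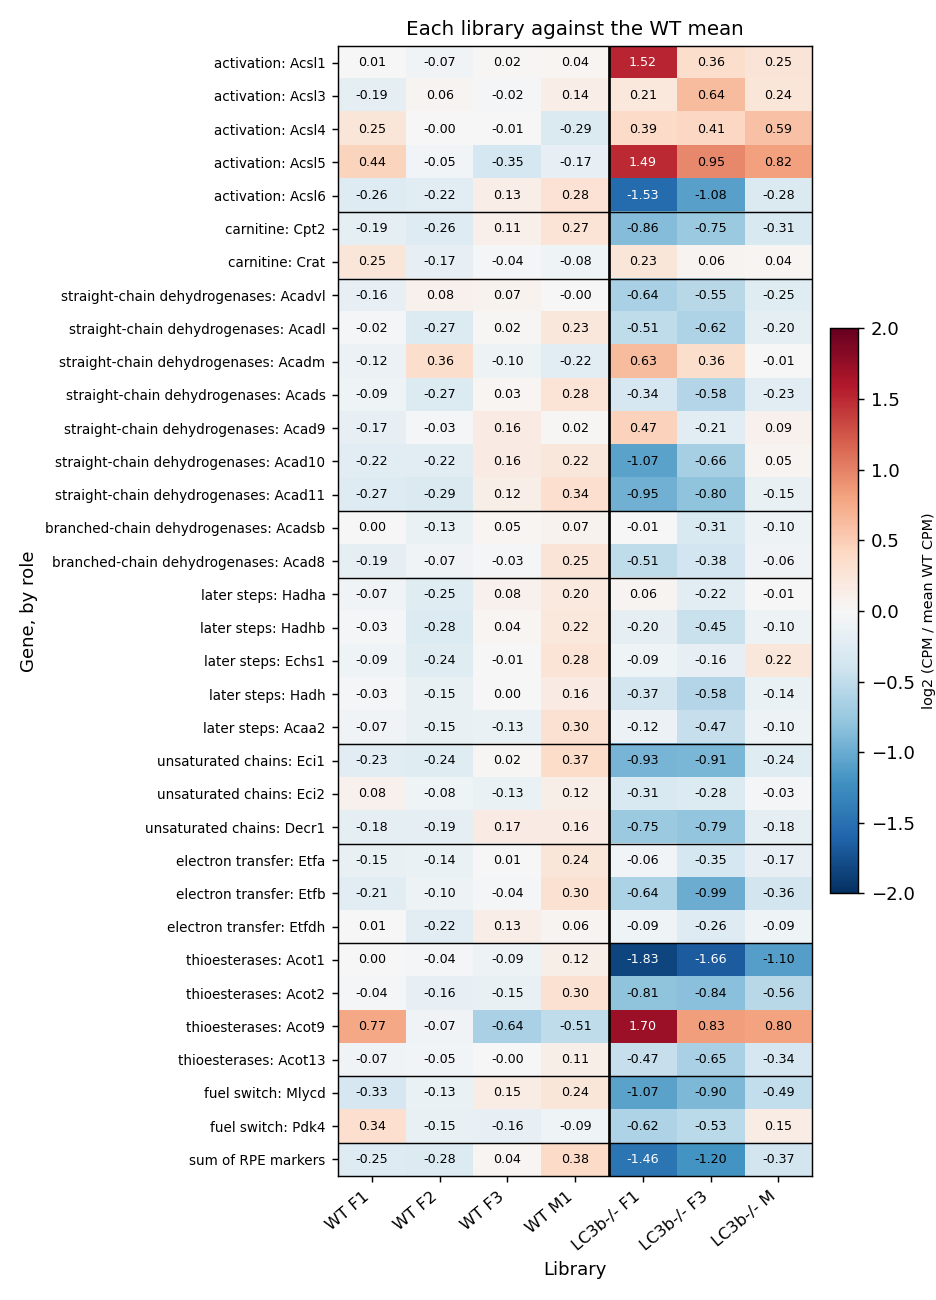
Log2 ratio of each library's CPM to the mean CPM of the 4 WT libraries (colour and printed value) for the 33 genes in rows grouped by role, with the summed 12 RPE markers in the last row and the 7 libraries in columns. LC3b-/- F1 and F3 are blue for most oxidation genes and for the RPE markers, LC3b-/- M is paler, and Acsl1, Acsl5 and Acot9 are red in all 3 LC3b-/- libraries.

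**Figure D2:**
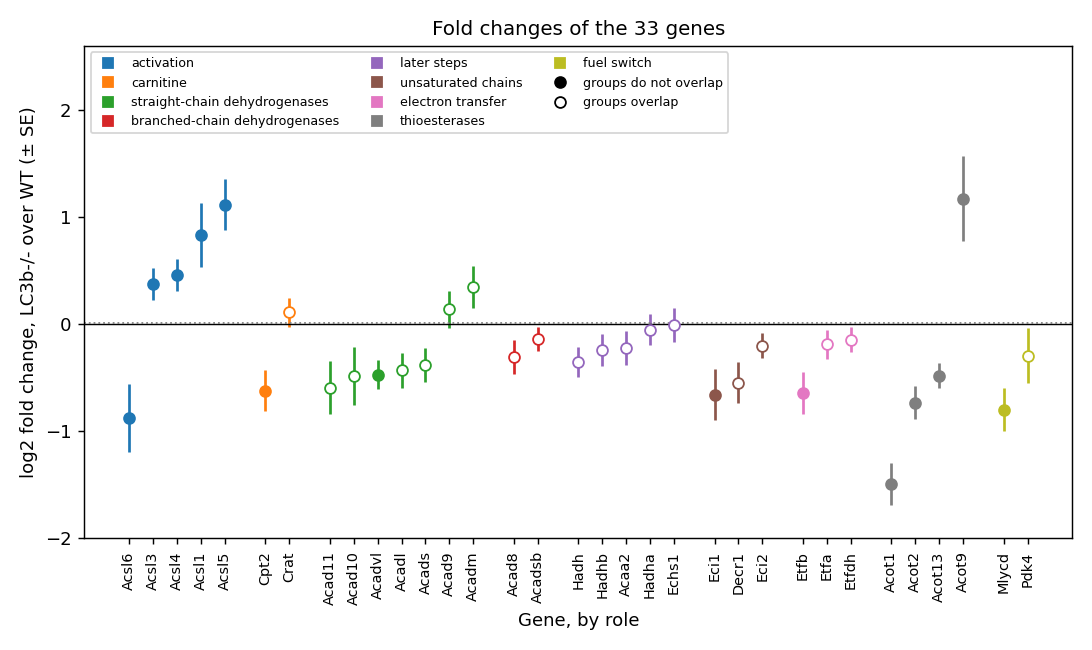
Log2 fold change of LC3b-/- over WT with its standard error for each of the 33 genes, coloured by role, with filled points where the WT and LC3b-/- libraries did not overlap. The dotted line is the median of all genes tested, and 25 of the 33 points lie below 0, with Acot1 the lowest and Acot9 the highest.

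The long-chain acyl-CoA synthetases, which activate fatty acids, were split. Acsl6 was lower in LC3b-/- and the other 4 were higher, and all 5 had an unadjusted p under 0.05 with no overlap between groups. Acsl6, the form that favours polyunsaturated fatty acids such as docosahexaenoic acid, measured 967, 989, 1261 and 1405 CPM in WT F1, F2, F3 and M1. It measured 399, 545 and 949 CPM in LC3b-/- F1, F3 and M. LC3b-/- F1 and F3 were far under the WT libraries and LC3b-/- M just under the lowest of them. The log2 fold change was −0.87 (SE 0.320, edgeR adjusted p = 0.164). Its unadjusted p was over 0.05 when either WT M1 or 1 of the LC3b-/- females was left out.

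The Acsl6 promoter is shown because Acsl6 was the most abundant synthetase and the only one of the 28 genes searched with a match to the motif searched for estrogen-related receptors, which work with Ppargc1a. RefSeq windows from 250 bases before to 50 after a start site, on GRCm38.p6, were at hand for 28 of the 33 genes (31 windows). Crat, Acad9, Acaa2, Decr1 and Acot13 had no window. The motif TNAAGGTCA, searched on both strands, was found in 1 of the 31 windows, one of the Acsl6 windows, on the minus strand and starting 167 bases before the start site, and in 1.28% of all 32851 windows. The motif of a direct repeat bound by PPAR and RXR, AGGTCANAGGTCA, was in none of the 31 and in 0.0396% of all windows. A match or its absence here describes these letters in this window only. In the sequence at chr11:54303574-54303873 (plus strand), capitals mark the match.
Acsl6 promoter window: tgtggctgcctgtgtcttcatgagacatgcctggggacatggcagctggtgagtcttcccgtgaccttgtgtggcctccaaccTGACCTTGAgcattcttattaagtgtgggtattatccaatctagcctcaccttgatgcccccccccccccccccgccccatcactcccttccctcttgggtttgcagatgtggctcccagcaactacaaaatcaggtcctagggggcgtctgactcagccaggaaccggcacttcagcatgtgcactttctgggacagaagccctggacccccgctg

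Acsl1, the main synthetase of liver and fat, measured 77.6, 73.4, 78.3 and 79.0 CPM in the WT libraries and 222, 98.8 and 91.9 CPM in LC3b-/- F1, F3 and M. The WT libraries were tightly grouped and all 3 LC3b-/- libraries lay above them, LC3b-/- F1 by far the most. The log2 fold change was 0.83 (SE 0.300, edgeR adjusted p = 0.160) and 0.30 without LC3b-/- F1. Acsl5, a mitochondrial and endoplasmic reticulum form, measured 24.2, 17.2, 14.0 and 15.9 CPM in WT and 50.2, 34.6 and 31.5 CPM in LC3b-/-. No LC3b-/- library came down to the highest WT value, that of WT F1. Its log2 fold change was 1.12 (SE 0.236, edgeR adjusted p = 0.0906), and the adjusted p was 0.0485 without WT F1.

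Acsl3, found on lipid droplets, measured 112, 133, 126 and 141 CPM in WT and 148, 199 and 151 CPM in LC3b-/-, a log2 fold change of 0.38 (SE 0.148, edgeR adjusted p = 0.182). Acsl4, which prefers arachidonic acid, measured 22.9, 19.3, 19.2 and 15.8 CPM in WT and 25.2, 25.6 and 28.9 CPM in LC3b-/-, a log2 fold change of 0.46 (SE 0.148, edgeR adjusted p = 0.133). For both genes the gap between the highest WT and the lowest LC3b-/- library was small. The CPM ratio of Acsl6 to Acsl1 was 12.5, 13.5, 16.1 and 17.8 in the WT libraries and 1.80, 5.52 and 10.3 in the LC3b-/- libraries F1, F3 and M.

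**Figure D3:**
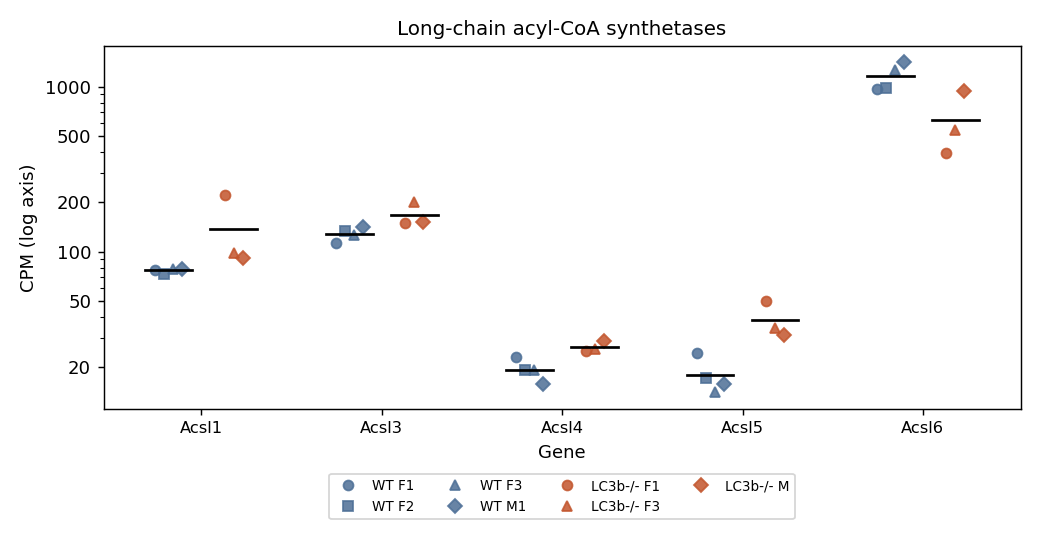
CPM of the 5 long-chain acyl-CoA synthetases on a log axis, with 1 point per library (blue WT, orange LC3b-/-, marker shape giving the mouse) and a bar at each group mean. Acsl6 lies lower in LC3b-/- and the other 4 lie higher, with no overlap between groups for any of the 5.

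Of the carnitine acyltransferases, Cpt2, which reforms acyl-CoA inside the mitochondrion, measured 38.0, 36.1, 46.6 and 52.1 CPM in WT and 23.8, 25.7 and 34.9 CPM in LC3b-/- F1, F3 and M. All 3 LC3b-/- libraries lay below WT, LC3b-/- M only just, with a log2 fold change of −0.62 (SE 0.192, edgeR adjusted p = 0.126). Crat, which moves acetyl groups to carnitine, had a log2 fold change of 0.11 (SE 0.134, edgeR adjusted p = 0.634), and its groups overlapped.

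Of the 7 acyl-CoA dehydrogenases grouped here as straight-chain forms, 4 were lower and none was higher at an unadjusted p under 0.05. Acadvl, for very long chains, measured 166, 197, 195 and 185 CPM in WT and 119, 127 and 156 CPM in LC3b-/-. The groups were fully separated, and the log2 fold change was −0.47 (SE 0.138, edgeR adjusted p = 0.116). Acadl, for long chains, measured 131, 111, 134 and 156 CPM in WT and 93.4, 86.5 and 116 CPM in LC3b-/-, with LC3b-/- M above WT F2, and a log2 fold change of −0.43 (SE 0.161, edgeR adjusted p = 0.168).

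Acad11, a long-chain form, measured 82.1, 80.5, 108 and 125 CPM in WT and 50.9, 56.5 and 89.1 CPM in LC3b-/-. LC3b-/- M lay among the WT libraries, and on the log2 scale the fold change was −0.59 (SE 0.246, edgeR adjusted p = 0.200). Acads, for short chains, measured 29.8, 26.4, 32.5 and 38.5 CPM in WT and 25.1, 21.2 and 27.0 CPM in LC3b-/-. Again only LC3b-/- M reached the WT range, and the log2 fold change was −0.38 (SE 0.161, edgeR adjusted p = 0.206).

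Acadm, the medium-chain enzyme between them, was on the other side. It measured 62.2, 86.4, 63.1 and 57.9 CPM in WT and 104, 86.3 and 66.8 CPM in LC3b-/-, with overlapping groups and a log2 fold change of 0.35 (SE 0.197, edgeR adjusted p = 0.316). The CPM ratio of Acadm to Acadl was 0.476, 0.782, 0.469 and 0.371 in WT and 1.12, 0.997 and 0.576 in LC3b-/-. LC3b-/- M fell within the WT range of that ratio and the other two lay above it. Acad10 and Acad9, the latter also an assembly factor of respiratory complex I, had log2 fold changes of −0.49 (edgeR adjusted p = 0.312) and 0.14 (edgeR adjusted p = 0.646), and the Acad9 value was −0.053 without LC3b-/- F1. The branched-chain enzymes Acad8 and Acadsb, which act in valine and isoleucine breakdown, stood at −0.30 (edgeR adjusted p = 0.274) and −0.13 (edgeR adjusted p = 0.497). Acad8 measured 42.6, 46.4, 47.5 and 57.9 CPM in WT and 34.1, 37.4 and 46.5 CPM in LC3b-/-, with LC3b-/- M among the WT libraries.

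Of the 5 enzymes of the later steps, 1 was lower at an unadjusted p under 0.05. Hadh, the short-chain hydroxyacyl-CoA dehydrogenase, measured 99.4, 91.6, 102 and 114 CPM in WT and 78.5, 67.9 and 92.2 CPM in LC3b-/-, and only LC3b-/- M overlapped WT. Its log2 fold change was −0.35 (SE 0.138, edgeR adjusted p = 0.181). Hadha and Hadhb encode the subunits of the trifunctional protein and had log2 fold changes of −0.05 (SE 0.143, edgeR adjusted p = 0.858) and −0.24 (SE 0.152, edgeR adjusted p = 0.363). Hadha was at 0.020 without WT M1 and at 0.0077 without LC3b-/- F3. Their genes lie head to head on chromosome 5 of GRCm39, and the CPM ratio of Hadha to Hadhb was 1.14 to 1.20 in the WT libraries against 1.39, 1.37 and 1.25 in the LC3b-/- libraries, without overlap. The genes also overlap at their starts, on opposite strands. The libraries were stranded, which can tell reads from there apart, but whether the counting used the strand is not stated. Acaa2, the thiolase, was at −0.22 (edgeR adjusted p = 0.425). Echs1, the hydratase, was at −0.0025 (SE 0.160, edgeR adjusted p = 0.995), and its sign turned with library size scaling and in 3 of the fits that left out 1 library (without WT M1, LC3b-/- F1 or LC3b-/- F3).

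Of the 3 helpers for unsaturated chains, 2 were lower at an unadjusted p under 0.05. Eci1, the isomerase that repositions double bonds, measured 174, 174, 207 and 264 CPM in WT and 107, 109 and 173 CPM in LC3b-/- F1, F3 and M. LC3b-/- M lay barely under the WT libraries, and the log2 fold change was −0.66 (SE 0.235, edgeR adjusted p = 0.159). Decr1, the dienoyl-CoA reductase for polyunsaturated chains, measured 72.7, 72.3, 93.0 and 92.5 CPM in WT and 49.3, 47.8 and 72.8 CPM in LC3b-/-. LC3b-/- M was level with WT F1 and F2, and the log2 fold change was −0.54 (SE 0.190, edgeR adjusted p = 0.153). Eci2 stood at −0.20 (edgeR adjusted p = 0.335).

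Electron transfer flavoprotein is a pair of subunits, of which Etfb lay apart between the groups and Etfa did not. Etfb measured 247, 266, 278 and 352 CPM in WT and 184, 144 and 222 CPM in LC3b-/- F1, F3 and M. No LC3b-/- library reached the WT range, and the log2 fold change was −0.64 (SE 0.196, edgeR adjusted p = 0.125). Etfa had a log2 fold change of −0.19 (SE 0.138, edgeR adjusted p = 0.433) with overlapping groups. The CPM ratio of Etfa to Etfb was 0.327 to 0.354 in WT and 0.509, 0.529 and 0.390 in LC3b-/-, again without overlap. The test of that difference itself was not run. Etfdh, which hands the electrons to ubiquinone, stood at −0.15 (edgeR adjusted p = 0.469). Of the 100-base windows of the Etfb transcript, 65.2% also occur in its copy Etfbl, to which 0.132% of the pair's counts were assigned. The same holds for 53.2% of the Hadhb windows, with pseudogene copies holding 0.127% of the counts.

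The acyl-CoA thioesterases, which split acyl-CoA back into fatty acid and coenzyme A, held the gene with the strongest difference. Acot1, the cytosolic form and a PPAR target in liver, measured 32.7, 31.8, 30.6 and 35.6 CPM in WT F1, F2, F3 and M1. It measured 9.18, 10.3 and 15.3 CPM in LC3b-/- F1, F3 and M. The WT libraries were tightly grouped, and even the highest LC3b-/- library, M, was at 46.7% of the WT mean. Acot1 fell by 1.49 on the log2 scale (SE 0.194, edgeR adjusted p = 0.0475). The adjusted p was 0.138 without WT F2, 0.110 without WT F3, 0.123 without WT M1, 0.125 without LC3b-/- F1 and 0.197 without LC3b-/- F3, while the log2 fold change stayed between −1.75 and −1.35 over the fits that left out 1 library. An exact two-sided permutation test on log2 CPM gave p = 0.0286, the smallest it can give. Others of the 33, among them Acot2, Acot13 and Mlycd, had the same p in that test.

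Acot2, its mitochondrial counterpart, measured 26.5, 24.4, 24.6 and 33.6 CPM in WT and 15.5, 15.3 and 18.5 CPM in LC3b-/-. The 3 LC3b-/- libraries were close to each other and all below WT, with a log2 fold change of −0.73 (SE 0.157, edgeR adjusted p = 0.0906). The CPM ratio of Acot1 to Acot2 was 1.23, 1.30, 1.24 and 1.06 in WT and 0.591, 0.676 and 0.826 in LC3b-/-, so every LC3b-/- library was below every WT value. That difference was not tested.

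Acot1 and Acot2 are neighbours on chromosome 12 of GRCm39 (Acot1 at chr12:84056256-84065145 and Acot2 at chr12:84034428-84040647, both on the plus strand), 15609 bases apart. Their coding sequences are shown because reads from one can be assigned to the other. The coding sequence of Acot2 is 453 codons long and opens with 41 codons that Acot1 (419 codons) lacks. Over the 1236 coding bases that line up, 58 differ (95.3% identity). In the sequences that follow, from GRCm39, capitals mark bases that differ between the pair. The Acot1 start lies at chr12:84056284-84056343, the extra Acot2 start at chr12:84034676-84034798 and the Acot2 stretch aligned with Acot1 at chr12:84034799-84034858.
Acot1 start: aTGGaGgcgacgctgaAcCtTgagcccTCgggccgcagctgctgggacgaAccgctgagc
Acot2 extra start: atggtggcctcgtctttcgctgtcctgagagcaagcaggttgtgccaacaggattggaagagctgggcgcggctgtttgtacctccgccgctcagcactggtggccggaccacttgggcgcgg
Acot2 aligned stretch: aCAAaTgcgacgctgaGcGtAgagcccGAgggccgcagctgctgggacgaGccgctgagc

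In the second coding exon, 4 of 203 bases differ, the closest match of the 3 exons. It lies at chr12:84061153-84061355 in Acot1 and at chr12:84037268-84037470 in Acot2.
Acot1 second coding exon: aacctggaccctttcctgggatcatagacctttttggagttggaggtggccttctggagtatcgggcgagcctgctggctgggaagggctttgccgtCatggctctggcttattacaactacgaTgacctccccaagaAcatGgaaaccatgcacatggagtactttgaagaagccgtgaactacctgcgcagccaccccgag
Acot2 second coding exon: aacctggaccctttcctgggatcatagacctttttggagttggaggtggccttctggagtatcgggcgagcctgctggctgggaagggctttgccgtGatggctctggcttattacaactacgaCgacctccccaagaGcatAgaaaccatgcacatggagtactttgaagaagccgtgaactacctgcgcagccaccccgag

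Of the 100-base windows of the Acot1 transcript, 16.5% also occur in Acot2 and 4.77% in Acot3, and 15.6% of those of Acot2 occur in Acot1. With the counts of Acot1, Acot2 and Acot3 added together, the log2 fold change was −1.12 (SE 0.155, edgeR adjusted p = 0.0517), so the sum did not pass the threshold that Acot1 alone passed. Outside Acot1, Acot2, Etfb and Hadhb, the share of windows found in another gene was at most 10.9%, for Acad10 with Acad12. The RefSeq promoter window of Acot1 on GRCm38.p6, at chr12:84009252-84009551, is shown as that of the 1 gene called, and it held neither of the motifs searched.
Acot1 promoter window: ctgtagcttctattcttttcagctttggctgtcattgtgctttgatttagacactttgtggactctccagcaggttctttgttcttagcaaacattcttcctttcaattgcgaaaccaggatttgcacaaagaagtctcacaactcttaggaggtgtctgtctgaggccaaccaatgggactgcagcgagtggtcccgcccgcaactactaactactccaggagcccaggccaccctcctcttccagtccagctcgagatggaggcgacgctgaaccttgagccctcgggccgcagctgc

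Acot13, a small mitochondria-associated thioesterase, measured 32.8, 33.1, 34.3 and 37.1 CPM in WT and 24.8, 21.9 and 27.2 CPM in LC3b-/-. Both groups were tight and did not overlap, and the log2 fold change was −0.48 (SE 0.117, edgeR adjusted p = 0.0967). Acot9, another mitochondrial form, ran the other way, with 13.1, 7.29, 4.91 and 5.38 CPM in WT and 25.0, 13.6 and 13.3 CPM in LC3b-/- F1, F3 and M. WT F1 came up to LC3b-/- F3 and M without overlapping them, and its log2 fold change was 1.17 (SE 0.397, edgeR adjusted p = 0.147) and 0.81 without LC3b-/- F1, where the unadjusted p was over 0.05.

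**Figure D4:**
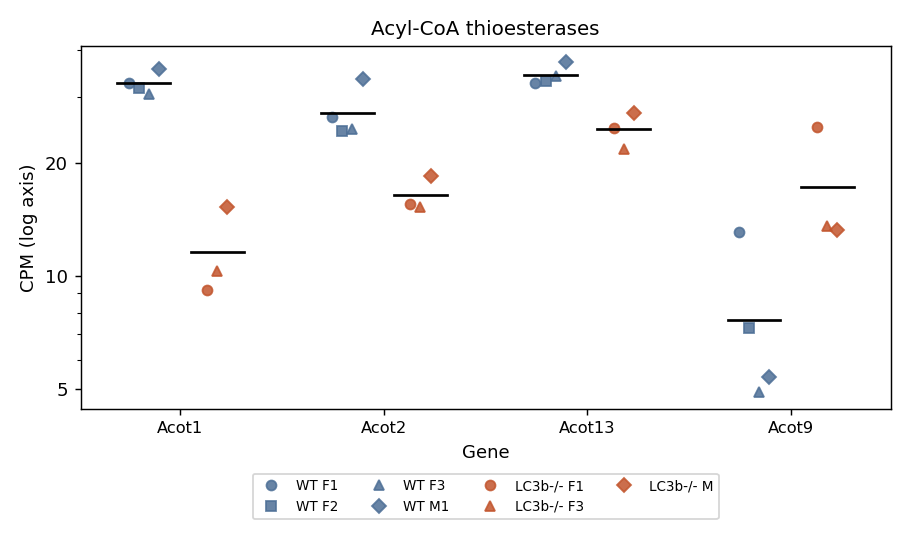
CPM of the 4 acyl-CoA thioesterases on a log axis, with 1 point per library (blue WT, orange LC3b-/-, marker shape giving the mouse) and a bar at each group mean. Acot1, Acot2 and Acot13 lie lower in every LC3b-/- library than in any WT library, with the widest gap for Acot1, and Acot9 lies higher.

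Mlycd and Pdk4 act on the choice of fuel. Mlycd breaks down malonyl-CoA, the inhibitor of fatty acid entry, and measured 36.1, 41.6, 50.5 and 53.5 CPM in WT and 21.7, 24.4 and 32.4 CPM in LC3b-/- F1, F3 and M. All 3 LC3b-/- libraries lay below WT. The log2 fold change was −0.80 (SE 0.197, edgeR adjusted p = 0.0967). Mlycd lies on chromosome 8 of GRCm39, 2.18 megabases from the deleted Map1lc3b, so an effect of the strain-derived sequence around the deletion cannot be told apart from that of the deletion. Pdk4, which holds back the use of pyruvate, was low in all libraries. It measured 8.66, 6.17, 6.14 and 6.46 CPM in WT and 4.47, 4.74 and 7.59 CPM in LC3b-/-, with overlapping groups and a log2 fold change of −0.29 (SE 0.259, edgeR adjusted p = 0.518).

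The summed RPE markers were lower in the same libraries. LC3b-/- F1, F3 and M held 36.4%, 43.6% and 77.6% of the WT mean of that sum. Acsl6 was at 34.6%, 47.1% and 82.1% of its WT mean in the same libraries, Eci1 at 52.5%, 53.3% and 84.6%, and Cpt2 at 55.1%, 59.5% and 80.7%. These 3 were chosen after their values were seen. The LC3b-/- libraries stood in the order of the RPE markers, F1 lowest and M highest, for 11 of the 25 genes with a fold change below 0, while F3 was the lowest for 14. Acot1 stood lower than the marker sum, at 28.1%, 31.6% and 46.7% of its WT mean. It was the only one of the 33 with a log2 fold change below the markers' median of −0.88. Acsl6, at −0.87 (SE 0.320), was level with that median. The single marker Lrat, at −1.58, was lower than Acot1, at −1.49. Hadha, at 104%, 86.1% and 99.5%, and Echs1, at 93.8%, 89.3% and 116%, stood far above the marker sum. Single markers varied, and Tyrp1 was at a log2 fold change of −0.21 and the scarce Best1 at 0.19.

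With the mean log2 level of the RPE markers as a covariate, a fit chosen after seeing the data, the median log2 fold change of the 33 genes was 0.025 and 13 of the 33 were below 0. In that fit 1 gene was lower and 1 higher at an unadjusted p under 0.05. The lower one was Acot1, at −1.02 (edgeR adjusted p = 0.665), and the higher one Echs1, at 0.44 (edgeR adjusted p = 0.961). Both are singled out here after their values were seen. Acsl6 was at 0.060 and Eci1 at 0.062 in that fit, Acsl5 at 0.57 (edgeR adjusted p = 0.961) and Acsl1 at 0.10 (edgeR adjusted p = 0.981). The RPE markers themselves differ between the groups, so genotype and marker level cannot be fully told apart in 7 libraries. The part of the RPE share of the tissue, and of the epithelial and endothelial signals, in the other differences was not tested.

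**Figure D5:**
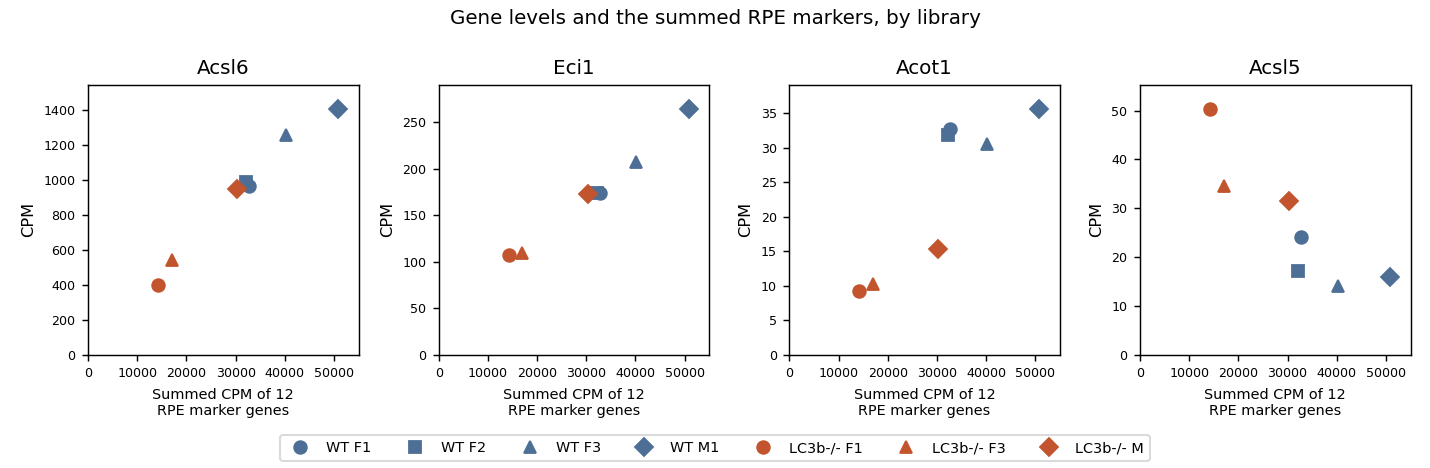
CPM of Acsl6, Eci1, Acot1 and Acsl5 (vertical axes from 0) against the summed CPM of 12 RPE marker genes (horizontal axes), with 1 point per library, blue for WT and orange for LC3b-/-. Acsl6 and Eci1 are higher where the marker sum is higher, Acot1 in LC3b-/- M lies at 15.3 CPM below WT libraries of a similar marker sum, and Acsl5 is higher where the marker sum is low.

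Other genes of the pathway, 69 in 8 lists, were examined beside the 33. Of the 61 tested, 34 had a fold change below 0 (55.7%, against 48.8% of all genes). At an unadjusted p under 0.05, 14 were lower (23%, against 10.6%) and 10 higher (16.4%, against 13.5%). The median log2 fold change of the 61 was −0.11. Without LC3b-/- F1 the lower count was 7 and the higher one 6, and without WT M1 the lower count was 9. Cpt1a, the gate for fatty acid entry, measured 188, 185, 211 and 219 CPM in WT and 156, 179 and 184 CPM in LC3b-/-. The groups did not overlap but lay close, and the log2 fold change was −0.21 (edgeR adjusted p = 0.336). None of the 6 carnitine entry genes had an unadjusted p under 0.05.

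Of 12 other mitochondrial acyl-CoA enzymes, 4 were lower and 1 higher at an unadjusted p under 0.05. Ivd, the isovaleryl-CoA dehydrogenase of leucine breakdown, measured 131, 118, 158 and 148 CPM in WT and 64.1, 62.9 and 83.4 CPM in LC3b-/-. Every LC3b-/- library lay well below WT, and the log2 fold change was −0.98 (SE 0.160, edgeR adjusted p = 0.0687). Gcdh of lysine breakdown, Ech1 and Acss3 were at −0.40, −0.38 and −0.59, and the mitochondrial acetyl-CoA synthetase Acss1 was at 1.79 (edgeR adjusted p = 0.115). Of 6 other thioesterases tested, 3 were lower and none higher, with Acot3 at −2.57 (edgeR adjusted p = 0.0916, on 0.201 to 3.07 CPM), Acot6 at −0.92 and Acot7 at −0.47. Acot5 and Acot12 were too low to test. The malonyl-CoA synthases Acaca and Acacb lay at −0.07 to −0.06.

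Among 12 uptake and binding genes tested, the transporter Slc27a1 (−0.66) and the acyl-CoA binding proteins Acbd4 (−0.38) and Acbd5 (−0.51) were lower at an unadjusted p under 0.05, while Slc27a3 (0.66) and Fabp5 were higher. Fabp5, a fatty acid binding protein of epithelia and endothelium, measured 26.6, 25.9, 9.70 and 27.2 CPM in WT and 153, 62.4 and 83.9 CPM in LC3b-/-, a log2 fold change of 2.16 (SE 0.425, edgeR adjusted p = 0.0898). Both Fabp5 and the epithelial marker sum were higher in every LC3b-/- library than in any WT library. Both were highest in LC3b-/- F1 and lowest in WT F3, which had 6.18 CPM of epithelial markers. LC3b-/- F3, with a higher such sum than M, had less Fabp5 than M. WT M1, at 2123 CPM of epithelial markers, had about as much Fabp5 as WT F1, at 547 CPM. The part of those cells was not tested.

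Of the 10 regulators, 1 was lower and 3 were higher at an unadjusted p under 0.05. The coactivator Ppargc1a was lower (−0.53, edgeR adjusted p = 0.173), whereas Ppard (0.44, edgeR adjusted p = 0.121), its partner Rxra (0.41, edgeR adjusted p = 0.178) and the corepressor Nrip1 (0.47, edgeR adjusted p = 0.154) were higher. Among other PPAR target genes, the lipid droplet coat Plin2 (−0.64) was lower at an unadjusted p under 0.05, and Txnip (1.06) and Vnn1 (1.54) were higher. Vnn1 lay near the floor, at 0.225 to 1.53 CPM (edgeR adjusted p = 0.138). Of 5 other pyruvate dehydrogenase kinases and phosphatases, Pdk1 (0.36) and Pdp1 (0.81) were higher and none was lower.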

How the data were processed

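RNA from 7 RPE samples was made into stranded mRNA libraries and read as single 100-base reads. The authors estimated transcript counts with Salmon against GENCODE vM26 on GRCm39 and combined these per gene with tximeta. These estimated counts were deposited rounded to whole numbers and unscaled. All 7 columns were used. Groups came from the genotype labels. Symbols, positions and lengths came from GENCODE vM39 on the same build. In R 4.3.3, edgeR 4.0.16 (filterByExpr, TMM, quasi-likelihood test of LC3b-/- against WT, Benjamini-Hochberg over 16990 genes) gave log2 fold changes, standard errors and p-values, and a call needed an adjusted p under 0.05 and 1.5-fold. Log2 CPM had a prior count of 2. DESeq2 1.42.0, which the authors used, and limma 3.58.1 (voom), other scalings and filters, sex as a covariate and leaving out libraries were alternatives. Shared stretches were found with blastn 2.17.0 and windows of 100 bases. The code was tested on simulated data. All 33 genes are named. Values in every library are given for those with an unadjusted p under 0.05, with groups apart, or with the widest fold change of their role, and among other pathway genes Cpt1a and those with an unadjusted p under 0.05 are named, apart from some that are not reported here. The genes, lists and tests were chosen with earlier results of these data known. The libraries are separate mice. Depth limits the genes of a few CPM most, and p-values rest on 4 against 3 libraries.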

Additional observations from a re-analysis of the deposited data

Results flagged for a closer look

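In WT, the F1 library stood apart from the other WT libraries for Pdk4, at 8.66 CPM against 6.17, 6.14 and 6.46 CPM. On the log2 CPM scale the gap between WT F1 and its nearest neighbour, divided by the whole WT range, was 0.854, where about 1 in 20 groups passes this limit by chance. The log2 fold change of Pdk4 did not pass the test with or without this library.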

How the results depend on the processing

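With the RPE marker covariate set aside, the counts of genes depended on the test and on single libraries more than the directions did. Leaving out each library in turn gave 0 to 2 of the 33 called, where 11 to 485 of all genes were called. It gave 7 to 16 lower and 3 to 5 higher at an unadjusted p under 0.05, 9 to 18 lower without overlap, and a median log2 fold change of −0.44 to −0.21. For other pathway genes it gave 7 to 20 lower and 6 to 10 higher. The main fit called 1 of the 33 and 40 of all genes. DESeq2 called 8 of the 33 and 1822 of all genes. Sex as a covariate gave 3 of the 33 (Acot1, Acot2 and Eci1) and 197 of all genes, with 22 other pathway genes lower. With females only, 18 were lower without overlap. The share of all genes without overlap was not computed for the fits with fewer libraries. Smaller groups separate more easily, so their counts without overlap cannot be set against those from all 7 libraries. With the replicate block by mouse name, 0 of the 33 and 1 of all genes were called. In that fit 17 were lower and 3 higher at an unadjusted p under 0.05, and Acot1 was at −1.54 (edgeR adjusted p = 0.118). The deviations of same-named libraries had correlations of 0.146, 0.243 and −0.172 for F1, F3 and M. No such values were computed for libraries of different names, so these cannot show whether shared names pair the mice. Without both WT M1 and LC3b-/- F1, an alternative added after seeing the data, 0 of the 33 and 5 of all genes were called. In that fit 5 of the 33 were lower and 4 higher at an unadjusted p under 0.05 and 14 were lower without overlap, 8 other pathway genes were lower and 4 higher, and Acad9 was at −0.045 and Echs1 at 0.15.

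With the RPE marker mean as a covariate, also added later, 0 of the 33 and 1 of all genes were called. In that fit 1 of the 33 was lower and 1 higher at an unadjusted p under 0.05, 13 had a fold change below 0, the median was 0.025, and 2 other pathway genes were lower and 0 higher. There 16 of the 33 changed sign: Acadm −0.27, Acadl 0.00083, Acad8 0.11, Acad10 0.36, Acad11 0.21, Hadha 0.15, Hadhb 0.074, Echs1 0.44, Acaa2 0.028, Eci1 0.062, Eci2 0.025, Decr1 0.017, Etfdh 0.0061, Acsl6 0.060, Crat −0.00055 and Pdk4 0.13. The cause was not tested. Elsewhere 560 of 571 single values kept their sign. Acad9 was at −0.013 with voom, and Echs1 at 0.035 with library size alone and 0.013 with at least 10 counts in every library. Without one library, Hadha ranged from −0.12 to 0.020, Echs1 from −0.13 to 0.10 and Acad9 from −0.053 to 0.27. Acot1 was below 0 in all 19 alternatives, with an unadjusted p under 0.05 in 19 and the call kept in 10.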
